A study of Mus musculus with 20 samples.

Results

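The levels of 10 genes of collagen maturation were followed through wild-type and Runx2-deficient blood progenitors: Serpinh1, Fkbp10, P4ha1, P4ha2, P3h1, Plod1, Plod2, Plod3, Lox and Pxdn. They are 10 of the 49997 genes in each count table, and were picked by name, with earlier results of these same libraries in view. Serpinh1 was known beforehand to be low in the homozygous libraries. Which values brought in the other 9 genes is not recorded, so every comparison that contains homozygous libraries is given for the 10 genes as a description, with no p-value of a single gene. There, a call only states whether the fit across all genes put the adjusted p under 0.05, and nothing is supported with it.

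The libraries are polyadenylated RNA from cultured mouse bone marrow cells sorted as 2 populations. HSC denotes lineage-negative, Kit-positive, Sca1-positive cells that carry CD201 and CD150, the surface phenotype of haematopoietic stem cells. HPC denotes Kit-positive, Sca1-positive, lineage-negative progenitors that lack CD201 and CD150. Each population was Runx2 wild type (WT), heterozygous knockout (het) or homozygous knockout (hom), with 3 libraries in each of the 6 groups. Both floxed mice and CRISPR editing are named as sources of the knockout, but no label ties a library to either, to a promoter driving a recombinase, to a culture time or to an age. Separate animals or cultures are not stated for the replicates either, so each p-value reflects only how far libraries scatter, and that scatter may be technical. RUNX2 is a transcription factor best known for its role in bone formation, studied here for how stem cells expand and how T cells are committed. CUT&Tag libraries belong to the same study and are not used here.

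Collagen chains are modified while they are still in the endoplasmic reticulum. Prolyl 4-hydroxylases and prolyl 3-hydroxylases add hydroxyl groups to proline, the former to stabilise the triple helix, and lysyl hydroxylases modify lysines that later carry sugars and crosslinks. The chaperones HSP47, encoded by Serpinh1, and FKBP65, encoded by Fkbp10, bind collagen on its way out of the cell. Outside the cell, lysyl oxidase crosslinks collagen and elastin fibres. Peroxidasin, a haem peroxidase encoded by Pxdn, forms the sulfilimine bonds of collagen IV in basement membranes. Fibroblasts and osteoblasts are the classic users of these enzymes, and several of the hydroxylase genes are also induced by hypoxia in many cell types.

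The libraries held 16663497 to 27061457 counts assigned to genes. A level of 3 counts equals 0.111 to 0.18 CPM (counts scaled to a common library size), depending on the library, and this limit covers counting error only. Runx2 itself fell in HSC from a WT level of 122 ± 3.49 CPM (SD, n = 3) to 85.1 ± 3.90 with 1 allele lost and 26.0 ± 1.73 with both lost. In HPC it fell from 126 ± 3.87 to 104 ± 4.41 and 23.5 ± 1.10 CPM. Which Runx2 exons the knockout removes was not examined. The CD201 gene Procr was at 45.5 ± 7.19 CPM in WT HSC and 5.61 ± 0.59 in WT HPC, and the CD150 gene Slamf1 at 19.0 ± 1.33 and 10.7 ± 1.90. Kit was at 412 CPM or more in all 18 libraries, whereas the Sca1 gene Ly6a was listed at 0 in each, within a run of 5 neighbouring genes listed at 0. All 9 HSC libraries held the Y-linked transcript Ddx3y, at 113 to 157 CPM, and all 9 HPC libraries were at 0 for it. Xist was at 2753 to 4742 CPM in HPC and at most 1.15 in HSC. Population and sex of the donors therefore cannot be told apart.

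Serpinh1 and Pxdn were the members called lower in hom cells of both populations, and their promoter sequences are shown for that reason beside those of P4ha1 and P4ha2, which were called in neither. They lie on different chromosomes. Serpinh1 spans 99345375 to 99353239 on the minus strand of chromosome 7, and Pxdn 29936642 to 30017658 on the plus strand of chromosome 12, in mm10 coordinates. The 10 genes sit on 8 chromosomes, none of them that of Runx2, which is on chromosome 17. The only members that share a chromosome lie far apart, P4ha2 and Fkbp10 by 46.3 Mb and Plod1 and P3h1 by 28.7 Mb. The sequences below come from RefSeq's GRCm38.p6 promoter table, read 5′ to 3′ on the strand of the gene and ending before the annotated start of transcription. Serpinh1 is given for 250 bases, chr7:99353240-99353489 on the minus strand. The others are given for 30 bases around a match: chr12:29938006-29938035 for Pxdn, chr10:59323266-59323295 for P4ha1 and chr11:54100749-54100778 for P4ha2, all on the plus strand. The Pxdn window lies within an exon of a longer Pxdn transcript. Capitals mark ACGTG or its reverse complement, the core of the hypoxia response element, except in P4ha2, where they mark the reverse complement of TGTGGT, the core letters that RUNX proteins recognise.
Serpinh1: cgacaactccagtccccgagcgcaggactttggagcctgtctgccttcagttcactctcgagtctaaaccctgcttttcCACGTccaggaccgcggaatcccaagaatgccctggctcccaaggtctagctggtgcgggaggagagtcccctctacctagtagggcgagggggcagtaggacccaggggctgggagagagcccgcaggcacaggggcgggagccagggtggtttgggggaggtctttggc
Pxdn: ccccccgcgcacagctgggACGTGggccgg
P4ha1: ggtgtgacagagcgCACGTagcgagggctg
P4ha2: gtgggggtggtgggACCACAgagggctgga

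The promoter table covers 7 of the 10 genes, with 8 windows of 300 bases because P3h1 has 2 annotated starts. ACGTG was searched on both strands and occurred in 6 of these 8 windows, compared with 19.6% of the 32851 promoters in the table. The match begins 171 bases before the start of Serpinh1 and 11 bases before that of Pxdn. It was also present in the promoters of P4ha1 and P4ha2, which were not called in hom cells of either population. TGTGGT, searched on both strands, occurred in 2 of the 8 windows, those of P4ha2 and Plod3, compared with 16.8% of all promoters. Neither Serpinh1 nor Pxdn held it within its 300 bases. The start of the longer Pxdn transcript has no window here and was not searched. The E-box CACGTG, which contains ACGTG, and the three-unit heat shock element, matched by its letters on both strands, occurred in none of the 8 windows, compared with 7.15% and 0.603% of all promoters. Base composition was not matched in these shares, and the 8 windows ranged from 53.3% to 70.3% GC.

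The 10 genes covered a wide range of levels, and most places in the order were the same in both populations. To compare genes, CPM were divided by exon length in kb. In WT HSC, P4ha1 was the highest at 64.3 ± 1.70 CPM per kb, followed by Plod2 at 15.6 ± 0.92, Plod3 at 14.7 ± 0.54, P4ha2 at 6.55 ± 0.61 and Serpinh1 at 4.52 ± 1.00. Plod1 at 3.99 ± 0.16 and P3h1 at 3.26 ± 0.38 CPM per kb came next. Below a wide gap stood Pxdn at 0.322 ± 0.134, Lox at 0.214 ± 0.091 and Fkbp10 at 0.107 ± 0.012 CPM per kb. The library ranges of Plod2 and Plod3, of Serpinh1 and Plod1, of Pxdn and Lox, and of Lox and Fkbp10 overlapped, so the order within these pairs is not resolved. In WT HPC the first 3 places were the same, P4ha1 reaching 90.9 ± 0.77 CPM per kb, while P4ha2 at 3.99 ± 0.03 overlapped P3h1, and P3h1 overlapped Plod1. Serpinh1, at 1.03 ± 0.18 CPM per kb, stood lower in the order there, below P3h1 at 3.73 ± 0.32 and Plod1 at 3.49 ± 0.36. Lox at 0.218 ± 0.133 and Pxdn at 0.102 ± 0.057 CPM per kb overlapped in range, and Fkbp10 had 3 counts in all 3 WT HPC libraries together. The levels of 5 genes are uncertain from the gene models: 43.7% of Plod2 exon bases overlap B430319G15Rik, 16.4% of Pxdn bases overlap Gm31939, 9.88% of Plod3 bases overlap Mir702 and Znhit1, 7.42% of Fkbp10 bases overlap Nt5c3b, which has far more counts, and Plod1 has a copy on an alternate contig.

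**Figure D1:**
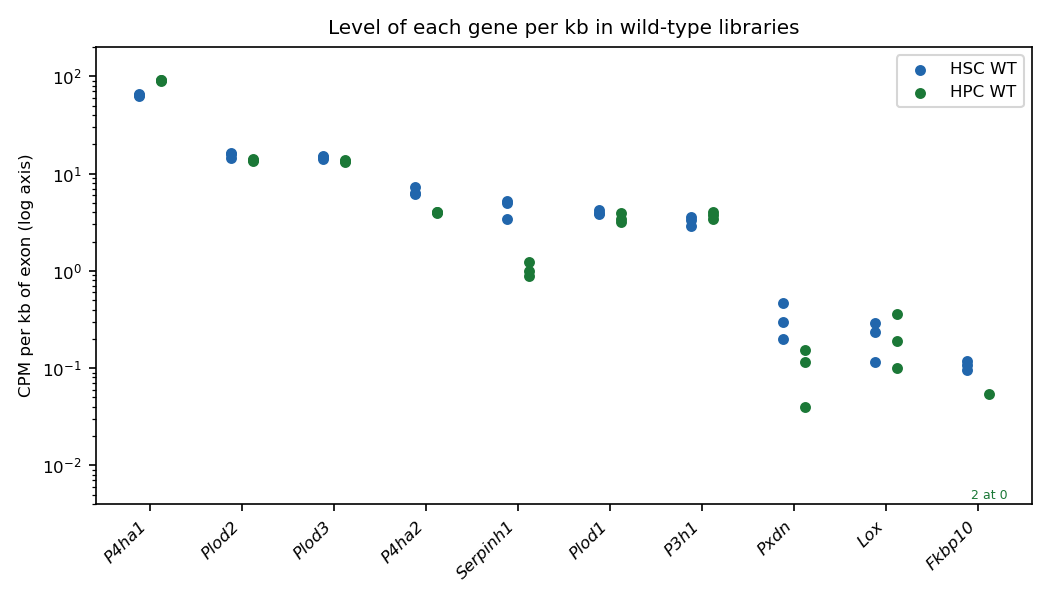
Level of each of the 10 genes in the WT libraries, as CPM per kb of exon on a log axis, with 1 point per library (3 HSC, 3 HPC). P4ha1 leads in both populations, Serpinh1 and Pxdn are higher in HSC than in HPC, and 2 WT HPC libraries are at 0 for Fkbp10.

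Of the 9 members that passed the filter on low counts, Serpinh1 had the largest difference between WT HSC and WT HPC. The HSC libraries stood at 8.24, 12.7 and 12.2 CPM and the HPC libraries at 2.14, 2.99 and 2.44 CPM. No HPC library came near the lowest HSC library. The log2 difference was 2.13 ± 0.28 (SE, adjusted p = 1.6e-06, edgeR). Pxdn was also higher in HSC, at 1.64, 2.47 and 3.81 CPM against 0.944, 1.25 and 0.328, a log2 difference of 1.66 ± 0.45 (adjusted p = 0.00309). P4ha2, a catalytic subunit of prolyl 4-hydroxylase, was higher in HSC by 0.72 ± 0.11 on the log2 scale (adjusted p = 1.24e-05), and Plod2, the lysyl hydroxylase that acts on collagen telopeptides, by 0.19 ± 0.07 (adjusted p = 0.0173). The other catalytic subunit gene, P4ha1, went the other way and was lower in HSC, with a log2 difference of -0.50 ± 0.06 (adjusted p = 2.71e-07). In all, 4 members were higher and 1 lower of the 9 tested, and these populations differ so widely that 54.9% of all genes tested were called, 27.7% higher and 27.2% lower in HSC. The median difference was 0.19 over the 9 members and 0.03 over all genes tested. Lox, Plod1, Plod3 and P3h1 were not called, with log2 differences of -0.01 ± 0.51, 0.19 ± 0.14, 0.12 ± 0.07 and -0.19 ± 0.13. The call of Plod2 was lost without WT HSC replicate 1 or 2 or WT HPC replicate 1 or 2, with log2 differences from 0.15 to 0.18. Fkbp10 did not pass the filter in any comparison. Its 19 counts in WT HSC against 3 in WT HPC give a ratio of 5.66 (95% exact interval 1.67 to 29.9, counting error only).

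Serpinh1 encodes the collagen-specific chaperone HSP47. In HSC, the het libraries stood at 8.36, 9.94 and 8.90 CPM and the hom libraries at 2.73, 3.50 and 5.84 CPM, beside the WT values above. The 3 hom libraries lay below every WT and het library, while het and WT overlapped. Hom HSC kept 36.4% of the mean WT level, a log2 fold change of -1.43 ± 0.25. In het HSC the level was 82.1% of WT, a log2 fold change of -0.28 ± 0.23 that was not called (adjusted p = 0.626). The call in hom HSC was lost without WT replicate 2, WT replicate 3 or hom replicate 2, at log2 fold changes of -1.33, -1.35 and -1.34. In HPC the values fell from the WT level to 1.47, 0.944 and 1.05 CPM in het and to 0.628, 0.261 and 0.0503 CPM in hom. The 3 HPC groups did not overlap. Hom HPC kept 12.4% of the WT mean, a log2 fold change of -3.03 ± 0.45 that was called, resting on 11, 5 and 1 counts against 43, 60 and 52. Serpinh1 fell in het HPC to 45.8% of WT, with a log2 fold change of -1.13 ± 0.37 (adjusted p = 0.0425). That call was lost with any of the 6 libraries left out (adjusted p = 0.05 to 0.164, log2 fold change -1.33 to -0.98), and it shares its WT libraries with the hom comparison. Since the libraries are bulk RNA, fewer cells that express a gene and less RNA per cell cannot be told apart, here and for the genes that follow.

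Fkbp10, whose product FKBP65 is a prolyl isomerase that works with HSP47 on type I procollagen, was near the detection limit throughout. The HSC libraries held 6, 6 and 7 counts in WT, 11, 12 and 9 in het and 3, 8 and 15 in hom. The het libraries lay above WT, while the hom libraries spanned both other groups. In hom against WT HSC the ratio of summed counts was 1.47 (95% exact interval 0.783 to 2.81), which leaves room for a decrease as well as a rise. The 9 HPC libraries held 0 to 3 counts each, too few to place any difference between genotypes.

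Lox encodes lysyl oxidase, the enzyme that starts crosslinking of collagen and elastin. In HSC the WT libraries stood at 0.563, 1.44 and 1.16 CPM, the het libraries at 0.447, 0.641 and 0.777, and the hom libraries at 0.361, 0.126 and 0.0479. The hom libraries lay below all others, on only 7, 3 and 1 counts, and WT and het overlapped. Hom HSC kept 16.9% of the WT mean (log2 fold change -2.55 ± 0.62). It was called, but the call was lost with 5 of the 6 libraries left out in turn, with a fit on WT and hom libraries alone and with the replicate number as a block, and Lox was not tested when at least 1 CPM in 3 libraries was required. Of those 6, leaving out hom replicate 1 kept the call, and the log2 fold change without each of the others lay between -2.84 and -2.12. In het HSC the log2 fold change was -0.77 ± 0.51 (adjusted p = 0.533). HPC showed no such separation: WT libraries stood at 1.79, 0.498 and 0.938 CPM, het at 0.575, 0.767 and 0.578, and hom at 0.285, 1.09 and 0.352. All 3 HPC groups overlapped. The log2 fold changes were -0.87 ± 0.50 in hom and -0.74 ± 0.50 in het (adjusted p = 0.363), neither of them called.

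Pxdn encodes peroxidasin. In HSC the WT libraries stood at 1.64, 2.47 and 3.81 CPM, the het libraries at 1.41, 1.14 and 2.22, and the hom libraries at 0.206, 0.379 and 0.574. Every hom library was below every other HSC library, and het overlapped WT. Hom HSC kept 14.7% of the WT mean, a log2 fold change of -2.73 ± 0.45 that was called, although the call was lost without hom replicate 2 (log2 fold change -2.71). The het value was 60.3% of WT, a log2 fold change of -0.73 ± 0.38 (adjusted p = 0.422). In HPC the gene had 19, 25 and 7 counts in WT, 5, 8 and 10 in het, and 2, 0 and 3 in hom. The hom libraries again lay below all others, each at or under the limit of 3 counts. The summed counts in hom were 10.7% of WT after scaling (95% exact interval 3.32% to 26.5%, counting error only), and the fitted log2 fold change was -3.14 ± 0.69, which was called. With at least 1 CPM required in 3 libraries, or with WT and hom libraries alone, Pxdn did not pass the filter in HPC and was not tested. In het HPC it was -0.90 ± 0.52 (adjusted p = 0.274).

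**Figure D2:**
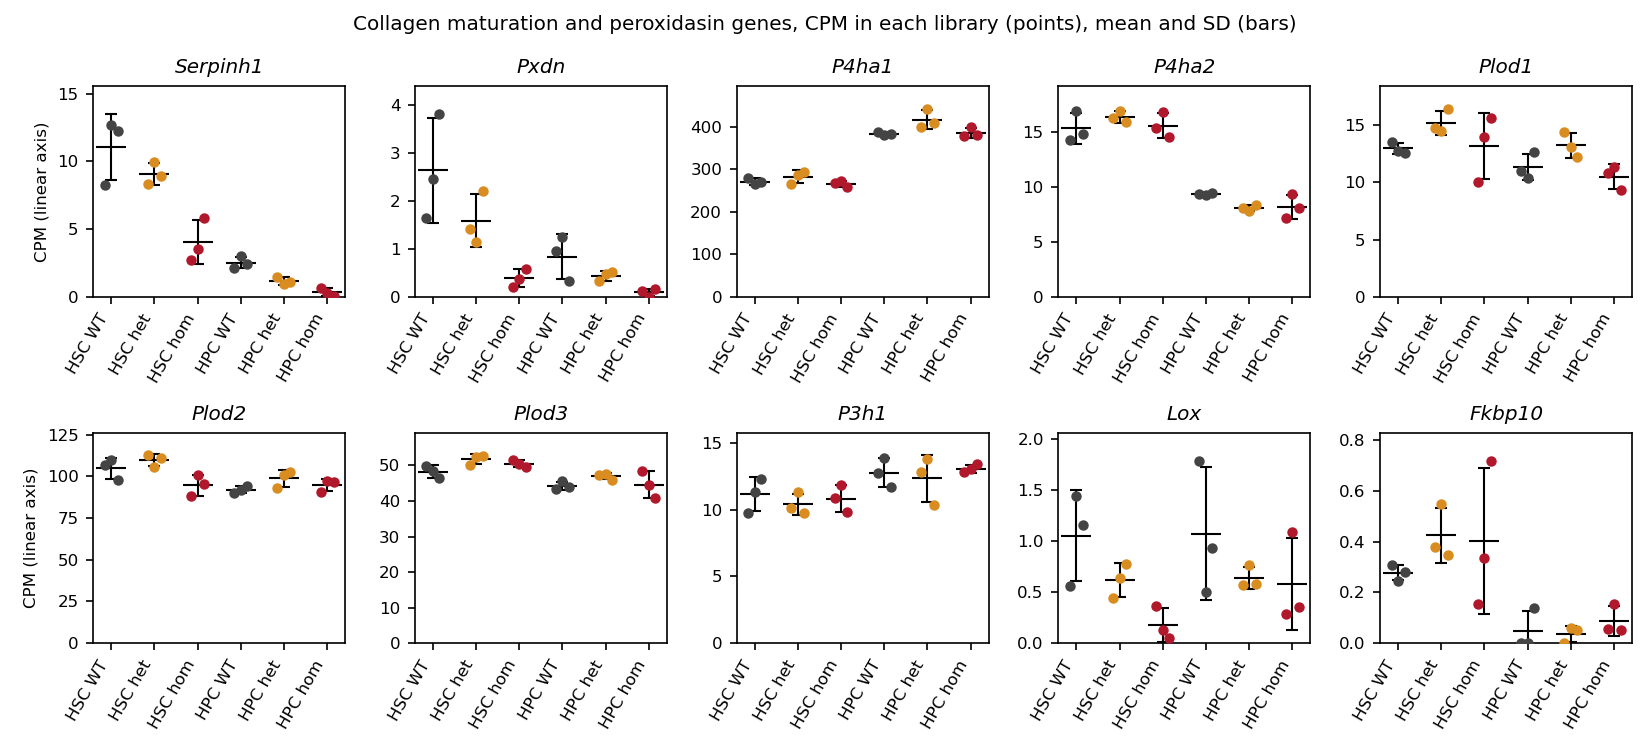
CPM of each of the 10 genes in the 18 libraries, on linear axes that start at 0, with 1 point per library and a bar for the mean and SD of each group of 3. Serpinh1 and Pxdn step down from WT to hom in both populations, Lox does so in HSC, and the hydroxylase genes P4ha1, P4ha2, P3h1 and Plod1 to Plod3 stay near the WT level.

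None of the 3 prolyl hydroxylase genes was called in het or hom cells of either population. P4ha1 was the most abundant member, where WT HSC libraries held 279, 265 and 270 CPM, het libraries 265, 286 and 294, and hom libraries 268, 272 and 258. The ranges of these groups overlapped. Its log2 fold change was -0.00 ± 0.07 in hom HSC and 0.02 ± 0.06 in hom HPC. In het HPC it was 0.12 ± 0.06, with all 3 het libraries (399, 441 and 410 CPM) above the WT libraries (387, 381 and 382 CPM), and was not called (adjusted p = 0.168). P4ha2 had means of 15.4 ± 1.43, 16.4 ± 0.52 and 15.6 ± 1.16 CPM in WT, het and hom HSC, and 9.35 ± 0.08, 8.10 ± 0.31 and 8.19 ± 1.08 CPM in HPC. Its het HPC libraries were all below WT, at a log2 fold change of -0.20 ± 0.12 (adjusted p = 0.297). P3h1, the prolyl 3-hydroxylase that works in a complex with CRTAP and cyclophilin B, had means from 10.4 to 11.1 CPM in the HSC groups and from 12.3 to 13.1 CPM in the HPC groups. Its genotypes overlapped in every comparison.

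The lysyl hydroxylases, which differ in the part of the collagen chain they act on, were not called against WT either. Plod1 and Plod3 had all 3 het HSC libraries above WT, with Plod1 at 14.8, 14.5 and 16.4 CPM against 13.6, 12.7 and 12.6 and Plod3 at 50.1, 52.5 and 52.8 CPM against 49.9, 48.4 and 46.4. Neither was called (log2 fold changes 0.24 ± 0.15 and 0.11 ± 0.07, adjusted p = 0.502 and 0.524). These were the 2 members higher without overlap in het HSC, where 10.5% of all genes tested were. In hom HSC, Plod1 spread from 10.0 to 15.7 CPM, wider than any other group of that gene. Plod2 stood at 107, 110 and 97.9 CPM in WT HSC and 88.1, 101 and 95.3 in hom, overlapping, with a log2 fold change of -0.12 ± 0.07. In HPC the hom values of the 3 genes differed from WT by -0.11 ± 0.12 for Plod1, 0.05 ± 0.06 for Plod2 and 0.01 ± 0.07 for Plod3 on the log2 scale, none of them called.

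Counted over the set, 3 of the 9 members tested were lower in hom than WT HSC (Serpinh1, Pxdn and Lox) and none higher, where 2.01% of all 14959 genes tested were called and 0.802% were called lower. The same 3 were lower without overlap of the libraries, as were 14.5% of all genes. In hom HPC 2 were lower (Serpinh1 and Pxdn), where 9.21% of 13855 genes were called and 4.29% were called lower. These 2 were also the members lower without overlap, as were 13.8% of all genes. Nothing is read from these shares, since the choice of genes used those contrasts. In het HSC no member was called by edgeR or DESeq2, and only 0.0334% of all genes were called by edgeR. None of the 9 members had an unadjusted p under 0.05 there, compared with 13.8% of all genes. In het HPC 1 of 9 was called, where 16.1% of all genes were and 6.99% were called lower, so the count of members there is near the background. Of the 9, 2 were higher without overlap in het HPC (P4ha1 and Plod3), as were 17.4% of all genes, and 2 lower (Serpinh1 and P4ha2), as were 16.2%. The median log2 fold change of the 9 members was -0.02 in hom HSC, 0.07 in het HSC, -0.11 in hom HPC and -0.05 in het HPC, while that of all genes lay within 0.01 of 0.

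**Figure D3:**
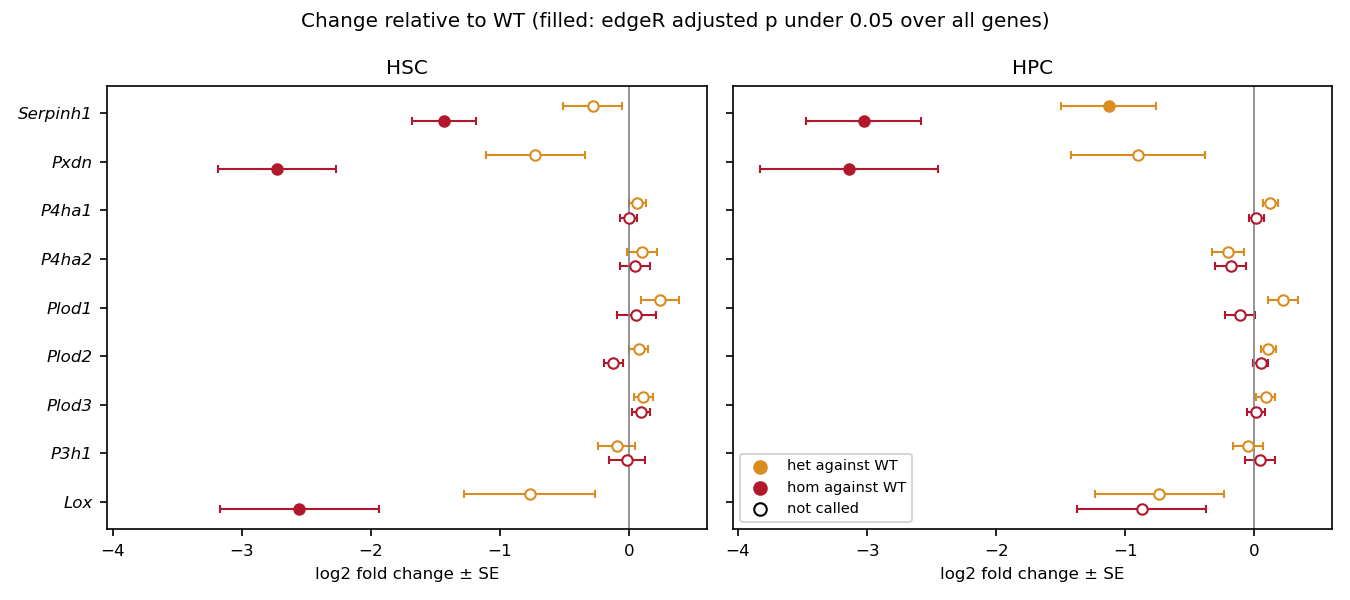
Log2 fold change against WT with its standard error for the 9 members tested, het in orange and hom in red, HSC on the left and HPC on the right. Filled points were called at an adjusted p under 0.05 over all genes: Serpinh1, Pxdn and Lox in hom HSC, Serpinh1 and Pxdn in hom HPC, and Serpinh1 in het HPC.

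The het means of Serpinh1, Pxdn and Lox lay between WT and hom in both populations, although the HPC groups of Lox overlapped. Against het, hom HSC were lower in Serpinh1 by a log2 fold change of -1.15 ± 0.25, in Pxdn by -2.0 ± 0.46 and in Lox by -1.79 ± 0.64. The libraries did not overlap for these 3 genes or for Plod2 (-0.20 ± 0.07), 4 members in all, where 9.85% of all genes were lower without overlap. No member was called by edgeR in that comparison, in which only 0.0134% of all genes were, although 4 members had an unadjusted p under 0.05, as did 11.7% of all genes, DESeq2 called Serpinh1 and Pxdn, and edgeR called both without hom replicate 3. In HPC, Serpinh1 was lower in hom than het by -1.90 ± 0.49 and was called, where 9.4% of all genes were and 5.77% were called lower. That call was lost without het replicate 1, hom replicate 2 or hom replicate 3 (log2 fold change -1.70, -1.80 and -1.37). Pxdn (-2.24 ± 0.78) and Plod1 (-0.33 ± 0.12) also lay below het without overlap and were not called, which makes 3 members, where 14.8% of all genes did so.

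The change of Serpinh1 in hom cells was larger on the log2 scale in HPC than in HSC, by 1.58 ± 0.54, but the difference between the populations was not called by edgeR. No member was, where 2.79% of all genes were, with 2 members at an unadjusted p under 0.05, as were 17.8% of all genes, and Serpinh1 called by DESeq2 and without HPC hom replicate 1. Pxdn differed by 0.41 ± 0.85 and Lox by -1.70 ± 0.86 (HSC minus HPC). The effect of het differed between populations for no member by either tool and for none at an unadjusted p under 0.05. Of all genes, 1.94% were called there by edgeR and 12.9% had an unadjusted p under 0.05. For Serpinh1 that difference was 0.84 ± 0.43 (adjusted p = 0.434).

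Across the 18 libraries, with the WT mean of each population subtracted, Serpinh1 and Pxdn had a Pearson correlation of 0.726 on log2 CPM. Lox correlated with Pxdn at 0.526 and with Serpinh1 at 0.330. The points share library, depth and genotype. After group means were subtracted, Serpinh1 and Pxdn correlated at 0.111 over the 18 libraries, at 0.712 over the 9 of HSC and at -0.144 over the 9 of HPC, where Pxdn has few counts. Lox then correlated with Pxdn at -0.347 and with Serpinh1 at -0.217 over the 18. Pxdn ranked 204th of 12885 genes by likeness to Serpinh1, and Serpinh1 ranked 90th by likeness to Pxdn, with predicted Gm and Rik genes left out. Among the genes most like Serpinh1 were Zfp532 (0.932), Klhl4 (0.926), Cdcp1 (0.922) and Ncam2 (0.918). Those most like Pxdn were Hoxb9 (0.925), Tmem121 (0.898), Nrk (0.891), Runx2 itself (0.881) and Il18r1 (0.867). None of the genes named here is a collagen gene.

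The partners of the 10 genes were followed as lists. These lists, too, were chosen with earlier results of these libraries known. Adjusted p-values of list genes in comparisons with homozygous libraries, here and in the lists below, therefore describe the fit and support nothing. Of 29 other collagen chaperones, hydroxylases, carriers and processing enzymes, 20 were tested in HSC. In hom HSC 1 was lower and none higher, where 2.01% of all genes were called. The median log2 fold change was 0.00, as over all genes. The gene that fell was Fkbp9, a prolyl isomerase of the endoplasmic reticulum in the same family as Fkbp10, from 57.1 ± 1.58 CPM in WT to 38.4 ± 5.55 in hom (log2 fold change -0.55 ± 0.10, adjusted p = 0.0117). Its het HSC level was 57.4 ± 1.75 CPM. The call was lost without WT replicate 2 or hom replicate 2 (adjusted p = 0.0643 and 0.0648). In HPC Fkbp9 fell from 30.9 ± 2.30 to 21.1 ± 0.64 in het and 17.0 ± 1.84 CPM in hom (log2 fold changes -0.55 ± 0.09 and -0.86 ± 0.09, adjusted p = 0.000309 and 4.03e-06). Of 18 list members tested in hom HPC, 2 were lower and 1 higher, where 9.21% of all genes were called and 4.29% were called lower. P3h3, a prolyl 3-hydroxylase family gene, fell from 21.5 ± 0.93 to 15.1 ± 0.29 CPM (adjusted p = 0.00133), and Tmem38b, an ion channel of the endoplasmic reticulum needed for collagen modification in bone, rose from 24.0 ± 0.32 to 34.1 ± 0.23 CPM (adjusted p = 0.000128). In het HPC 3 were lower (Fkbp9, P3h2 and Adamts3) and 1, Tmem38b, higher, where 16.1% of all genes were called. P3h2 stood at 2.78 ± 0.67 CPM in WT HPC, at 0.599 ± 0.460 in het and at 2.33 ± 0.85 in hom. The other 2 parts of the prolyl 3-hydroxylase complex stood at 74.0 ± 2.29 CPM in WT and 73.5 ± 3.54 in hom HSC for Crtap, and 41.7 ± 1.32 and 42.5 ± 3.56 CPM for Ppib. P4hb, the shared second subunit of prolyl 4-hydroxylase, was listed at 0 in all 18 libraries, within a run of 14 neighbouring genes listed at 0, so its level is not known from these tables.

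Collagen chains gave the substrate side. The most abundant were those of basement membrane collagen IV, Col4a1 at 260 ± 12.9 CPM and Col4a2 at 346 ± 15.8 CPM in WT HSC. In WT HPC they were at 177 ± 8.42 and 203 ± 7.48 CPM. The chains of fibrillar type I and type III collagen were nearly silent, Col1a1 at 1.23 ± 0.39 CPM in WT HSC and 0.214 ± 0.162 in WT HPC and Col3a1 at 0 counts in both. In hom HSC the collagen IV chains were not called (log2 fold change 0.12 ± 0.07 for Col4a1, adjusted p = 0.33, and 0.20 ± 0.07 for Col4a2, adjusted p = 0.135), while peroxidasin fell. In hom HPC Col4a1 fell to 146 ± 6.36 CPM (log2 fold change -0.28 ± 0.06, adjusted p = 0.00784) and Col4a2 stood at 174 ± 15.0 CPM (adjusted p = 0.0689). The Col4a1 call was lost without WT replicate 2 (log2 fold change -0.24, adjusted p = 0.06), and 14.3% of its exon bases overlap Col4a2 and Gm15418. Over the 20 basement membrane genes that peroxidasin works beside, none of 13 tested was called in hom HSC by edgeR, at a median log2 fold change of 0.16. Of these 13, 1 had an unadjusted p under 0.05, as did 18.4% of all genes, and DESeq2 called 1, Col4a2. In hom HPC, where 4.29% of all genes were called lower, 4 of 9 were lower and none higher, at a median of -0.22. They were Col4a1, Col4a5, the laminin chain Lama5 and the laminin chain Lamb3. DESeq2 called 4 there too, with Col4a2 in place of Lamb3. Among 28 fibrillar and other collagen chains, 1 of 7 tested was higher in hom HSC and 1 of 5 lower in hom HPC. The shares of all genes called there were 2.01% and 9.21%. Col16a1, which belongs to the fibril-associated collagens, fell in HPC from 20.0 ± 1.12 CPM to 11.4 ± 1.05 in het and 8.78 ± 0.30 in hom (adjusted p = 2.18e-05 and 3.5e-07). In HSC it stood at 24.6 ± 2.60, 27.6 ± 3.06 and 24.9 ± 3.74 CPM. Col11a2 rose in hom HSC from 15.8 ± 2.58 to 25.0 ± 3.17 CPM (adjusted p = 0.0212), a call lost without any 1 of the 3 WT libraries or hom replicate 2 (adjusted p = 0.0504 to 0.128). Copies of Col16a1 and Col11a2 on alternate contigs make their levels uncertain.

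**Figure D4:**
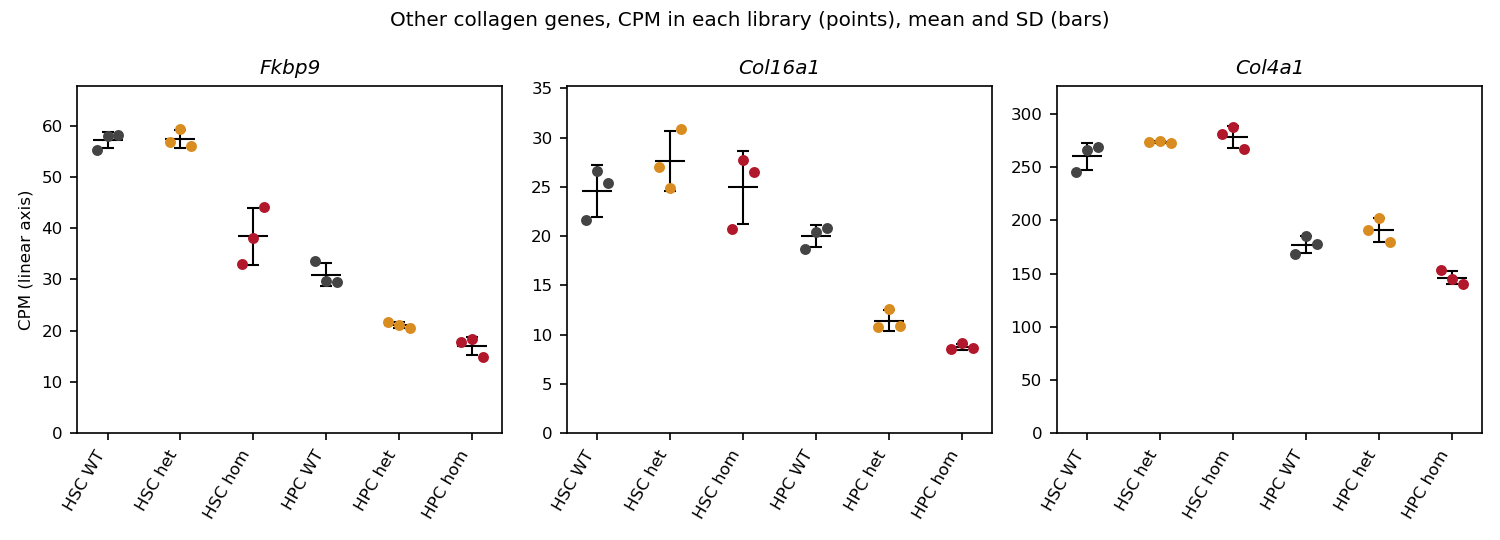
CPM of Fkbp9, Col16a1 and Col4a1 in the 18 libraries, on linear axes that start at 0, with 1 point per library and a bar for the mean and SD of each group of 3. Fkbp9 is lower in hom cells of both populations, Col16a1 is lower in het and hom HPC than in WT HPC, and Col4a1 is lower in hom than in WT HPC.

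Lists of hypoxia, heat shock, endoplasmic reticulum and peroxidase genes were followed as well, and their part in the results for the members was not tested. None of 20 hypoxia-inducible genes, 15 heat shock factor targets, 14 general chaperones and disulphide enzymes of the endoplasmic reticulum or 3 other haem peroxidases was called in hom HSC by edgeR, at median log2 fold changes of -0.02, -0.07, -0.11 and -0.25. An unadjusted p under 0.05 was found for 4, 3, 2 and 2 of them, and for 18.4% of all genes, of which 2.01% were called. DESeq2 called 1 gene in the 4 lists, the peroxidase family gene Ptgs2. In hom HPC none of the first 3 lists had a called gene by edgeR or DESeq2, where 9.21% of all genes were called by edgeR. In these lists 5, 1 and 1 genes had an unadjusted p under 0.05, as did 21.6% of all genes. Of the peroxidases Mpo, the neutrophil myeloperoxidase, rose in hom HPC from 1304 ± 34.3 to 2034 ± 55.1 CPM (adjusted p = 1.89e-05). In het HPC 3 of 20 hypoxia-inducible genes were higher (Mxi1, Pfkfb4 and Bnip3) and none lower by edgeR, with 7 at an unadjusted p under 0.05. These counts are near the background, where 16.1% of all genes were called and 28.6% had an unadjusted p under 0.05. DESeq2 called 6 there, among them Ddit4, at 81.2 ± 4.37 CPM in WT and 61.2 ± 7.18 in het, and Ero1a, at 393 ± 48.1 and 322 ± 11.6 CPM, both lower in het. Between WT populations, 13 of the 14 endoplasmic reticulum genes tested were lower in HSC than in HPC, among them Calr at a log2 difference of -1.26 ± 0.07, and none was higher. Over all genes tested, 27.2% were lower and 27.7% higher in WT HSC. Serpinh1 went against the direction of the endoplasmic reticulum genes, being higher in HSC. Of the 20 genes tested in the collagen list, 10 were higher and 4 lower in HSC, the 4 being near the share of all genes. The higher genes with the smallest p were P3h3 (1.28 ± 0.09), Sparc (3.18 ± 0.27), Fkbp9 (0.89 ± 0.09) and Loxl2 (3.10 ± 0.33).

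Markers of other cell types moved in HPC. The 10 monocyte and macrophage markers summed to 350 to 379 CPM in WT HPC, 632 to 647 in het and 634 to 726 in hom, with 8 of 9 tested higher in hom and 7 of 9 in het. The 10 neutrophil granule markers summed to 1632 to 1729, 2038 to 2460 and 2674 to 2861 CPM, with 7 of 9 higher in hom and 4 of 9 in het. Only Lcn2 of these was at 0 in every group. The 10 megakaryocyte markers summed to 527 to 592 CPM in WT, 257 to 357 in het and 353 to 553 in hom, with 5 of 10 lower in het and 1 of 10 in hom. Of 9 stem cell markers tested in HPC, 5 were lower and 1 higher in hom, and 2 lower and 3 higher in het. Of 8 dendritic cell markers tested in HPC, 5 were lower and 1 higher in hom, and 0 lower and 3 higher in het. The 8 endothelial markers summed to 249 to 269 CPM in WT HPC, 289 to 307 in het and 285 to 299 in hom. Of 5 tested, 1 was higher and 1 lower in hom, and 1 higher and 2 lower in het. The 8 mast cell and basophil markers summed to 346 to 363, 315 to 328 and 403 to 415 CPM. Of 6 tested, 3 were higher and 2 lower in hom, and 2 higher and 2 lower in het. Over all genes tested, 9.21% were called in hom HPC and 16.1% in het HPC. The part of all these markers in the HPC results for Serpinh1 and Pxdn was not tested. In HSC the monocyte list summed to 190 to 207 CPM in WT and 175 to 199 in hom, with 1 of 7 tested, Ccr2, lower, and none of 8 megakaryocyte or 9 stem cell markers tested was called in hom by edgeR. Of those, 4 and 1 had an unadjusted p under 0.05, as did 18.4% of all genes, and DESeq2 called 1, the platelet gene Gp5. Of 8 dendritic cell markers tested, 3 were lower in hom HSC (Ccr7, H2-Aa and H2-Eb1) and 1, Flt3, higher, where 2.01% of all genes were called. The part of the dendritic cell markers in the HSC results was not tested. None of 5 endothelial or 5 mast cell and basophil markers tested was called in hom HSC by edgeR or DESeq2. An unadjusted p under 0.05 was found for 1 and 0 of them, and for 18.4% of all genes. The fibroblast and stromal list, the usual source of these enzymes, summed to 69.5 to 78.4 CPM in WT HSC and 58.6 to 67.9 in hom, and to 100.0 to 119 in WT HPC and 83.5 to 85.9 in hom. Nearly all of that was Pdgfrb, at 70.6 ± 4.36 CPM in WT HSC and 59.0 ± 4.89 in hom, and falling in HPC from 111 ± 11.3 CPM to 83.1 ± 1.12 (log2 fold change -0.41 ± 0.07, adjusted p = 0.00116). Dcn and Lum of that list were listed at 0 in all 18 libraries. Whether they lie in a run of genes listed at 0, as Ly6a does, was not examined. The 7 osteoblast markers summed to at most 2.29 CPM in any library.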

How the data were processed

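The deposited values are raw counts of read pairs per gene, 1 table for HSC and 1 for HPC. Per the file headers, the authors counted with featureCounts 2.0.6, pairs together, without strand, over exons of an mm10 annotation. The submitters' processing notes also name Trim Galore 0.6.10, STAR 2.7.11a and mm39, and coordinates here follow the headers. Counting without strand merges reads of overlapping and antisense genes. Libraries held 16663497 to 27061457 counts, and no 2 libraries of the same group agreed within sampling noise. Each population's 9 libraries were fitted together with edgeR 4.0.16 in R 4.3.3 (quasi-likelihood, TMM scaling, filterByExpr), and all 18 for comparisons across populations. Benjamini-Hochberg adjustment ran over all genes tested, and the threshold for a call was 0.05. The fit was tested on simulated data. CPM use TMM factors over all 18 libraries. The named genes are the members, Runx2, the sort markers, up to 4 called genes per list and comparison by p, and the 5 genes most like Serpinh1 and Pxdn by correlation of log2 CPM with a prior count of 2, of which 1 is not reported here. Other genes, among them Crtap, Ppib, P4hb, Ddit4, Ero1a, Col1a1, Col3a1, Ptgs2 and Gp5, were named after their values were seen. The members and lists were chosen with earlier results of these data known. DESeq2 1.42.0, RLE size factors, other filters, fewer groups, a replicate block and leaving out each library were the alternatives.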

Additional observations from a re-analysis of the deposited data

Results flagged for a closer look

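No member of the set differed between HSC and HPC in its response to genotype by edgeR. Of its partner genes and the sort markers, 9 genes did, in 10 results, each by a test of the difference itself (HSC minus HPC, log2, edgeR adjusted p). The partner lists were chosen with earlier results of these libraries known, so p-values of the hom effect describe the fit and support nothing. For the hom effect, Tmem38b differed by -0.83 ± 0.11 (adjusted p = 0.000191), with -0.30 in HSC and 0.51 in HPC. Col16a1 differed by 1.21 ± 0.17 (adjusted p = 0.000365), with 0.05 in HSC and -1.18 in HPC. P3h3 differed by 0.60 ± 0.12 (adjusted p = 0.0111), with 0.12 and -0.50. The collagen IV chains Col4a1 and Col4a2 differed by 0.38 ± 0.09 (adjusted p = 0.0239) and 0.39 ± 0.10 (adjusted p = 0.0329). Bnip3, a hypoxia-inducible mitophagy gene, differed by -0.36 ± 0.09 (adjusted p = 0.0345), and Lamb3 by 1.25 ± 0.34 (adjusted p = 0.0467). For the het effect, Slamf1, which was used in the sort, differed by 1.59 ± 0.23 (adjusted p = 0.000472), with 0.02 in HSC and -1.58 in HPC. Col16a1 differed by 0.97 ± 0.17 (adjusted p = 0.00213) and Fkbp9 by 0.56 ± 0.13 (adjusted p = 0.0271). Under the 18 alternatives, the calls of Tmem38b, P3h3, Slamf1 and both of Col16a1 were never lost, while those of Col4a1 and Col4a2 were lost in 6 each, Bnip3 in 8, Fkbp9 in 9 and Lamb3 in 13.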

How the results depend on the processing

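Of 81 results for single members, the 12 that were called kept their direction under every alternative run, and 48 of 1064 alternative values, in 19 results with sizes up to 0.41, changed sign. Members called in hom HSC numbered 3, with 2 when at least 1 CPM in 3 libraries was required, with a fit on the 2 groups alone and with the replicate block (Lox lost), and 0 to 3 with a library left out. They numbered 0 without hom replicate 2 and 1 without WT replicate 2 or WT replicate 3. For hom against het HSC members called were 0, with 2 by DESeq2, 2 with no filter and 0 to 2 with a library left out. In hom HPC members called were 2, with 1 at the 1 CPM filter and 1 on the 2 groups alone (Pxdn not tested in either) and 2 with any library left out. In het HPC members called were 1, and 0 with any library left out. For hom against het HPC members called were 1, 2 with no filter and 0 to 1 with a library left out. Between WT populations members called were 5, and 4 to 6 with a library left out. For the hom effect between populations members called were 0, with 1 by DESeq2, 1 with no filter and 0 to 1 with a library left out. Genes called over all genes, for the members' comparisons, were 300 in hom HSC (740 by DESeq2, 898 with no filter, 155 on the 2 groups alone, 189 with the replicate block), 5 in het HSC (192, 399 and 299 for the first 3), 2 for hom against het HSC (150 and 511), 431 for the hom effect (849 and 738) and 300 for the het effect (513, 592 and 514). Signs changed in hom HSC for P4ha1 (0.0003 at 1 CPM, 0.0033 on 2 groups, -0.0218 to 0.0192 with a library left out), P4ha2 (-0.0132 to 0.1238), Plod1 (-0.0829 to 0.2153) and P3h1 (-0.1031 to 0.0644). In hom HPC they changed for P4ha1 (-0.0023 with no filter, -0.0151 to 0.0243), Plod3 (-0.0048 with no filter, -0.0542 to 0.0673) and P3h1 (-0.0167 to 0.1092). The het HPC value of P3h1 ran from -0.1477 to 0.0583. For hom against het HPC the ranges were -0.0794 to 0.1062 for P4ha2, -0.0233 to 0.1828 for P3h1 and -0.9746 to 0.1752 for Lox. Between WT populations Lox gave 0.0013 at 1 CPM, 0.0081 on 2 groups and -0.3524 to 0.5585. The hom effect ranges were -0.162 to 1.0643 for Pxdn and -0.1654 to 0.0088 for P3h1. The het effect ranges were -0.2247 to 0.5753 for Pxdn, -0.0583 to 0.077 for Plod1, -0.0083 to 0.0444 for Plod3, -0.1693 to 0.0361 for P3h1 and -0.6068 to 0.3038 for Lox (0.0135 with the replicate block). The cause of these moves was not tested. Deviations of same-numbered libraries correlated at r = -0.243 to 0.259 over 9 pairs in HSC and -0.135 to 0.304 in HPC. Between WT and hom all were positive, 0.095 to 0.259 in HSC and 0.048 to 0.304 in HPC. Pairs with het libraries had both signs. With 3 libraries in a group, the check cannot settle whether the numbers pair samples. The block changed no other count of members called. Depth limits Lox, Pxdn and Fkbp10, with 0 to 95 counts a library.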
